A study of Mus musculus with 2 samples.

Results

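The natriuretic peptide system of the embryonic mouse heart was described here through 6 genes, chosen by name: the peptides Nppa, Nppb and Nppc and the receptors Npr1, Npr2 and Npr3. All 6 were among the 22401 features counted. Whole hearts of E11.5 embryos, the stage at which the chambers and valves form, were dissociated and profiled as single cells by droplet 3′ sequencing, in 1 library per genotype. The Control library carried 1 floxed Hand2 allele and the mTmG reporter without Cre (Hand2fx/+R26RmTmG/wt). The H2CKO library carried Nfatc1Cre, 2 floxed Hand2 alleles and the same reporter (Nfatc1Cre/wtHand2fx/fxR26RmTmG/wt). Nfatc1Cre acts in the endocardium and its descendants, so cardiomyocytes are not its main target, and mTmG turns on GFP in cells in which Cre has acted. The labels do not say how many embryos entered each library, and Cre and the second floxed allele differ together between the libraries, so their parts cannot be told apart. With 1 library per genotype no p-value was possible. The values compare these 2 libraries, and each bracketed 95% interval covers counting error only.

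Atrial and B-type natriuretic peptides, the products of Nppa and Nppb, are hormones of heart muscle. In the embryo Nppa marks the working myocardium of the atria and of the trabeculae, the muscular ridges that line the ventricles, and it is kept low in the atrioventricular canal and the outflow tract. Both peptides signal through Npr1, a membrane guanylyl cyclase that makes cGMP. C-type natriuretic peptide, the product of Nppc, signals through the related cyclase Npr2, and Npr3 binds all 3 peptides and removes them.

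The Control library held 14114 barcodes and 195825720 unique molecular identifiers (UMIs, each 1 counted transcript), and the H2CKO library 13885 barcodes and 201477256 UMIs. After filters, 8920 and 11534 cells were kept, with medians of 3150 and 2269 genes, and 29 of the barcodes kept occurred in both libraries. Cells were grouped into 6 classes named from marker genes, with the 6 natriuretic genes left out of the clustering. The classes were cardiomyocyte-like (3276 Control and 4303 H2CKO cells), endothelial-like (382 and 751), mesenchymal-like (1623 and 1074), epicardial-like (833 and 312), white blood cell-like (70 and 109) and erythroid-like (2736 and 4985). At least 9 of the markers of each class had a UMI in at least 10% of its cells in either library. Hand2 fell from 226 to 11.2 CPM (the UMIs of a gene scaled to a class total of 1000000 UMIs) in endothelial-like cells and stood at 82.4 and 74.2 CPM in cardiomyocyte-like cells. GFP stood at 16.7 CPM in endothelial-like Control cells, which carry no Cre, and at 1183 CPM in those of H2CKO. The libraries differed in quality measures that touch the results below: the median cardiomyocyte-like cell had 3.97% mitochondrial UMIs in Control and 6.93% in H2CKO.

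Nppa and Nppb are neighbours on chromosome 4. In GRCm38.p6, Nppb spans 147985788 to 147987205 and Nppa 148000722 to 148002079, both on the plus strand, with 13.517 kb between them. The 250 bases before the start of Nppa, chr4:148000472-148000721, plus strand, from the RefSeq promoter table, are shown because Nppa carries the largest signal of the 6 genes and Nppb, its neighbour, moved differently. Capitals mark matches, on either strand, to GATAA (the core of GATA factor sites), TCACACC (a T-box motif) and AAGTG (the core of NK2 homeobox sites). The match in capitals that reads TTATC is GATAA on the other strand.
Nppa upstream: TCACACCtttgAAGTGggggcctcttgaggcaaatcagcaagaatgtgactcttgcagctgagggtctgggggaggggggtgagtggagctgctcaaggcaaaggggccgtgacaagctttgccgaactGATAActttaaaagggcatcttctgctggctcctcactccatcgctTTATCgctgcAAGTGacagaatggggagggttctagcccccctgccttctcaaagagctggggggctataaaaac
This window held 2 matches to GATAA, 1 to TCACACC and 2 to AAGTG. Over 32817 windows of the same length in the table, 22.6% held GATAA, 3.33% held TCACACC and 40.7% held AAGTG on either strand. The Nppb window, from 147985650 to 147985899, ends at the RefSeq start and runs into the GENCODE span given above. It held 2 matches to GATAA, both inside that span, and 0 to the other motifs, and the windows of Nppc and the 3 receptor genes held 0 matches to any of the 3. A match describes the letters and was not tested as a binding site.

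Nppa was higher in the cardiomyocyte-like cells of the H2CKO library. Its level was 891 CPM in Control (884 to 898) and 2153 CPM in H2CKO (2143 to 2163), a 2.42-fold difference (2.39 to 2.44). On the log2 scale, with 5 CPM added to each level, the difference was 1.27. A gene was counted as past 2-fold where this value was at least 1 in size and the higher library had at least 20 CPM and 20 UMIs. By this rule 0.198% of 5567 genes were past 2-fold higher in cardiomyocyte-like cells and 0.736% past 2-fold lower, and the median of all was −0.17. Cardiomyocyte-like cells held 96.0% of the Nppa UMIs of all kept cells in Control and 96.4% in H2CKO.

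The Nppa difference was not the same in all cardiomyocyte-like cells. It changed direction with the share of UMIs from mitochondrial genes, and the libraries had unequal numbers of cells at each share. Among cells with at most 5% mitochondrial UMIs, Nppa was lower in H2CKO, at 783 CPM in 2319 Control cells and 412 CPM in 578 H2CKO cells (0.53-fold, 0.51 to 0.55). Among cells with over 5% it was higher, at 1080 CPM in 957 Control cells and 2323 CPM in 3725 H2CKO cells (2.15-fold, 2.12 to 2.18). In finer bands the level within Control showed no steady trend, with 1191 CPM up to 2.5%, 725 CPM up to 5%, 1062 CPM up to 7.5% and 1182 CPM up to 10%. Within H2CKO it was 749, 389, 1689 and 3215 CPM in the same bands. The H2CKO cells in the low bands also had less of the cardiomyocyte markers, at 50078 CPM summed over 13 genes against 61389 CPM in Control, and less of 5 trabecular markers, at 655 against 1081 CPM. Whether the share of mitochondrial UMIs, the kind of myocyte or the genotype goes with the difference was not tested.

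**Figure D1:**
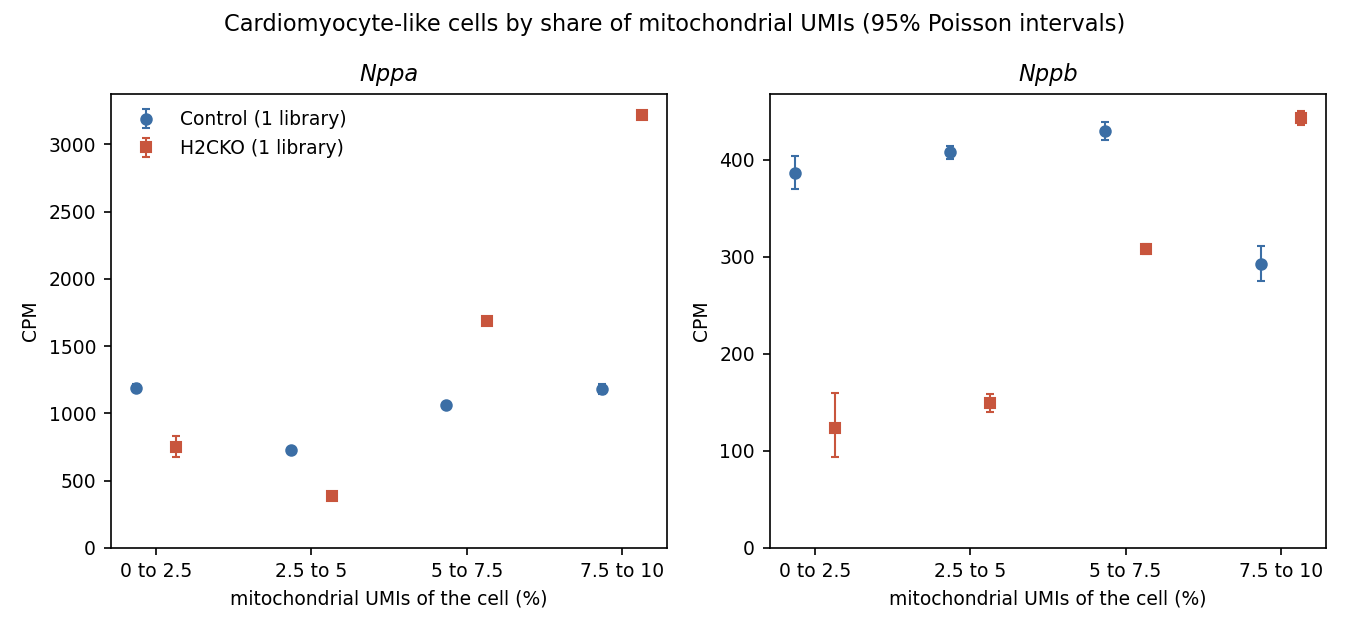
Nppa (left) and Nppb (right) in cardiomyocyte-like cells, in CPM (y axis), by the percent of each cell's UMIs from mitochondrial genes (x axis). Circles are the Control library, squares the H2CKO library, and bars 95% Poisson intervals. Nppa in H2CKO lies below Control up to 5% and above it from 5%, reaching 3215 CPM in the last band.

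Over all cardiomyocyte-like cells Nppb was not higher in H2CKO. It stood at 407 CPM in Control (402 to 412) and 345 CPM in H2CKO (341 to 349), a log2 difference of −0.23 that is under 2-fold. Its difference also depended on the mitochondrial share: 405 against 148 CPM at up to 5%, and 409 against 364 CPM above it. In the last band, from 7.5% to 10%, Nppb was 293 CPM in Control and 443 CPM in H2CKO. Up to 5% both genes were thus lower in H2CKO. From 5% to 7.5% Nppa was 1.59-fold higher (1.57 to 1.62) and Nppb lower, at 0.72-fold (0.70 to 0.74). From 7.5% both were higher, Nppa 2.72-fold and Nppb 1.51-fold (1.42 to 1.61).

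The H2CKO signal of Nppa was concentrated in few cells. Among cardiomyocyte-like cells with at least 5000 UMIs, the median cell had 0.76 Nppa UMIs per 10000 UMIs in Control (2319 cells) and 1.32 in H2CKO (3968 cells). The cell at the 90th percentile had 30.1 and 41.5, and the cell at the 99th percentile 113 and 275. The 10% of cells with the most Nppa held 65.3% of the Nppa UMIs in Control and 83.6% in H2CKO. At least 100 Nppa UMIs per 10000 were reached by 37 Control cells (1.60%) and 185 H2CKO cells (4.66%). For Nppb the 90th percentile was 11.2 in Control and 7.58 in H2CKO and the 99th 39.7 and 33.6, while the highest cell had 89.4 and 116. The 10% of cells with the most Nppb held 61.6% and 67.5% of its UMIs.

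Cardiomyocyte-like cells fell into 13 sub-clusters, 4 of which are named here because at least 3 of their 10 leading genes were markers of that name. Of the 12 with at least 30 cells in each library, Nppa was past 2-fold higher in H2CKO in 9, past 2-fold lower in 1 and neither in 2. The atrial-like sub-cluster, with 4 H2CKO cells, was not counted. Over all genes tested in those 9, the share past 2-fold higher lay between 0.165% (sub-cluster 7) and 3.4% (sub-cluster 11). The 9 include sub-clusters 9 and 11, whose Nppa per cell lay at the level of erythroid-like cells given below. With that level taken off every gene, Nppa stayed past 2-fold higher in 6 sub-clusters, all but 5, 9 and 11 of the 9. With each cell thinned to 5000 UMIs it was past 2-fold higher in 7 of 11 sub-clusters and sub-cluster 8 lost its call (log2 0.99). Sub-cluster 6 became past 2-fold lower under both settings (log2 −1.06 and −1.29). By direction alone, among cells with at most 5% mitochondrial UMIs, Nppa was lower in H2CKO in 7 of the 11 sub-clusters with enough cells. It was higher there in 4. Past 2-fold were 3 of the lower and 3 of the higher ones, and the lower ones have as few as 13 H2CKO cells. Above 5% it was lower in 2 of 10, both past 2-fold, and higher in 8, of which 7 were past 2-fold.

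The highest levels outside the atrial-like cells were in the trabecular-like sub-cluster, led by Cited1, Gja5 and Bmp10. There Nppa was 2314 CPM in 299 Control cells and 7470 CPM in 463 H2CKO cells (3.23-fold, 3.17 to 3.29), where 0.302% of 5306 genes were past 2-fold higher. Nppb in the same cells was 893 and 774 CPM. The summed trabecular markers stood at 1784 and 2314 CPM. Within the trabecular-like cells, 4.38% of Control cells and 20.6% of H2CKO cells reached 100 Nppa UMIs per 10000. Of the H2CKO trabecular-like cells, 450 had over 5% mitochondrial UMIs, with 7599 CPM against 2654 CPM in 127 Control cells (2.86-fold, 2.80 to 2.93). Only 13 had at most 5%, with 1375 CPM against 2045 CPM in 172 Control cells.

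Nppa is normally low in the atrioventricular canal, and the canal-like sub-cluster, led by Bmp2, Gal and Tbx3, held 56.3 CPM in 91 Control cells (46.0 to 68.3). In 163 H2CKO cells it held 356 CPM (334 to 380), a 6.32-fold difference (5.16 to 7.83), where 0.424% of 6136 genes were past 2-fold higher. This was 1.13 UMIs per cell in Control and 5.76 in H2CKO. The difference kept its direction at both mitochondrial shares, at 23.9 against 92.9 CPM up to 5% and 79.0 against 393 CPM above it. The values up to 5% rest on 18 UMIs in 35 Control cells and 30 UMIs in 23 H2CKO cells. These counts lie little above the number per cell of erythroid-like cells given below. Nppb in these cells stood at 121 and 119 CPM, but at 203 against 124 CPM up to 5% (0.61-fold, 0.42 to 0.87) and 64.2 against 118 CPM above it (1.85-fold, 1.41 to 2.44). The summed canal markers went from 1815 to 1417 CPM, ventricular markers from 10735 to 17108 CPM and erythroid markers from 5747 to 14493 CPM, and their part was not tested.

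The outflow-tract-like sub-cluster, led by Bmp4 and Isl1 among others, held 62.6 CPM of Nppa in 174 Control cells and 154 CPM in 254 H2CKO cells (2.46-fold, 2.10 to 2.90), where 0.264% of 5680 genes were past 2-fold higher. Nppb stood at 50.0 and 73.1 CPM (1.46-fold, 1.20 to 1.79). At up to 5% mitochondrial UMIs Nppb was 28.8 against 42.9 CPM (1.49-fold, 0.83 to 2.56). Above 5% it was 80.3 against 77.4 CPM (0.96-fold, 0.77 to 1.22), so neither band showed a difference beyond its interval. Per cell the Nppa values were 1.25 and 2.04 UMIs, against 0.395 and 0.936 in erythroid-like cells. With that background taken off every gene, 59.2 and 116 CPM were left, a log2 difference of 0.92, and the call was lost. The canal-like cells had 50.9 and 395 CPM left and kept theirs (log2 2.84). In the outflow-tract-like cells too the direction of Nppa was the same at both mitochondrial shares, with 35.6 against 69.1 CPM and 101 against 166 CPM. Up to 5% this rests on 73 UMIs in 108 Control cells and 29 UMIs in 40 H2CKO cells. That H2CKO count lies below the erythroid-like number per cell, so the direction in this band cannot be told from background. Both regions thus kept the lowest named levels of Nppa in both libraries, below the trabecular-like and the atrial-like cells.

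The atrial-like sub-cluster, led by Nr2f1 and Stard10 among others, had the highest Control level of all, 4369 CPM in 98 cells. It had only 4 cells in H2CKO, so its 6478 CPM there gives no useful comparison. Leaving this sub-cluster out gave 781 CPM in Control and 2148 CPM in H2CKO over the other cardiomyocyte-like cells.

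Of the sub-clusters without a name, sub-clusters 0 and 3, led by histone and cell division genes, held 621 against 1855 CPM and 878 against 2639 CPM of Nppa, where 0.247% and 0.483% of genes were past 2-fold higher. In their cells with at most 5% mitochondrial UMIs Nppa was instead lower in H2CKO, at 533 against 435 CPM (48 H2CKO cells) and 812 against 139 CPM (24 H2CKO cells). Sub-cluster 7, led by Col1a1, Upk3b and Masp1, held 115 and 485 CPM, where 0.165% of genes were past 2-fold higher, and 81.4 and 106 CPM of Nppb (1.30-fold, 1.15 to 1.46). Sub-cluster 8, led by haemoglobin genes, held 823 and 1864 CPM, where 0.184% were, but 762 against 448 CPM at up to 5% mitochondrial UMIs, where 119 of its 253 H2CKO cells lay. Sub-cluster 2, led by Ckm and Tnni2, held 278 and 456 CPM, which is under 2-fold. It held 366 against 160 CPM at up to 5% and 141 against 476 CPM above it (3.38-fold, 3.00 to 3.81, in 102 and 563 cells). Sub-clusters 9 and 11, at the lower end with 195 and 36.6 CPM in Control, had 512 and 133 CPM in H2CKO, on 43 and 63 UMIs, where 1.37% and 3.4% of genes were past 2-fold higher. Per cell this was 0.406 and 0.811 UMIs in sub-cluster 9 and 0.286 and 0.818 in sub-cluster 11, near the erythroid-like level. Their summed cardiomyocyte markers were also low, at 9287 and 15999 CPM in sub-cluster 9 and 11927 and 6498 CPM in sub-cluster 11.

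Nppa was lower in H2CKO in the remaining pair. Sub-cluster 1, with a median of 1505 UMIs per cell, held 1977 CPM in 730 Control cells and 755 CPM in 253 H2CKO cells, a log2 difference of −1.38, where 2.56% of 4927 genes were past 2-fold lower. Its Control cells had a median of 0.64% mitochondrial UMIs and its H2CKO cells 5.60%. Sub-cluster 6, led by Art1 and Selenop, held 2065 CPM in 54 Control cells and 1080 CPM in 368 H2CKO cells, a log2 difference of −0.93. Nppb was lower in both, at 435 against 174 CPM in sub-cluster 1 and 474 against 253 CPM in sub-cluster 6.

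**Figure D2:**
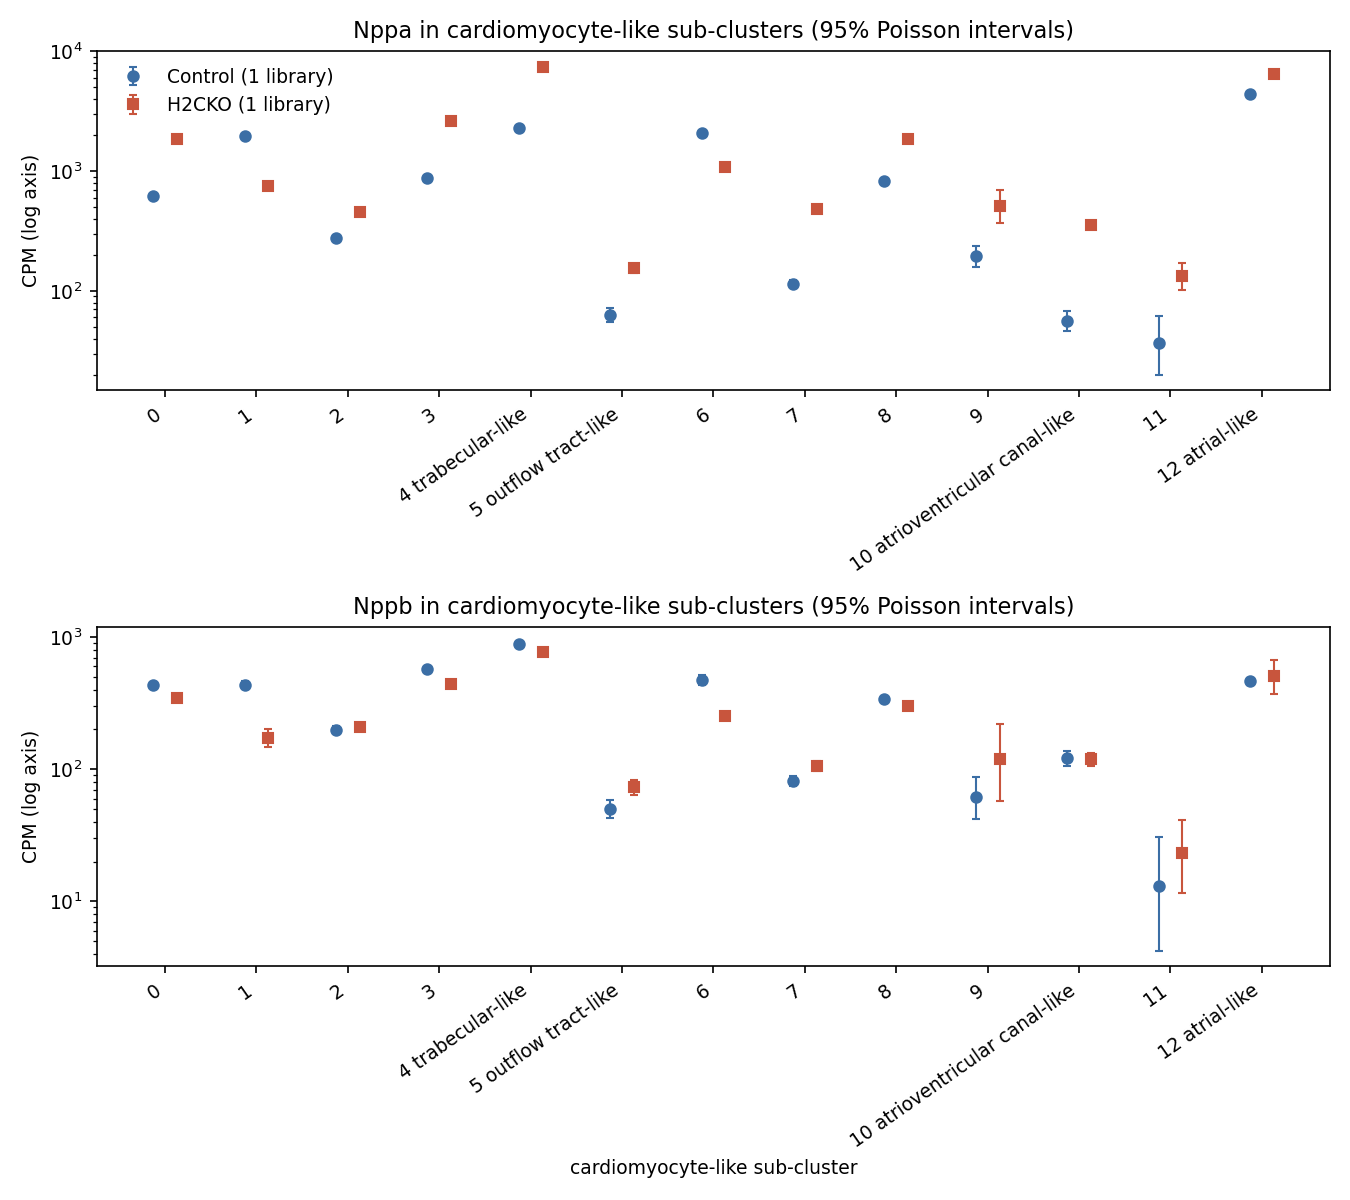
Nppa (top) and Nppb (bottom) in the 13 sub-clusters of cardiomyocyte-like cells (x axis), in CPM on a log axis. Circles are the Control library, squares the H2CKO library, and bars 95% Poisson intervals. Nppa in H2CKO lies above Control in 11 sub-clusters and below it in sub-clusters 1 and 6, while Nppb differs less.

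Outside the cardiomyocyte-like cells, Nppa UMIs were spread at nearly the same number per cell over every class. In H2CKO the other 5 classes had between 0.888 and 0.973 Nppa UMIs per cell, erythroid-like cells included (0.936, 0.909 to 0.963). In Control they had between 0.314 and 0.598, with 0.395 in erythroid-like cells (0.371 to 0.419). Red blood cells are not a source of the peptide, so levels near theirs were taken as background. RNA outside the cells is a possible source of it, which was not tested. By CPM, Nppa was past 2-fold higher in H2CKO in endothelial-like cells (25.8 against 76.6, where 0.827% of 6531 genes were, but 52.2 against 86.6 and under 2-fold in the cells with over 5% mitochondrial UMIs), in mesenchymal-like cells (26.3 against 84.1, where 0.459% of 6532 were), in white blood cell-like cells (16.3 against 59.6, where 1.42% of 5912 were) and in erythroid-like cells (21.0 against 68.1, where 0.348% of 2010 were). Taking the erythroid-like number per cell off left 13.2 of 164 UMIs in Control endothelial-like cells and 23.1 of 726 in H2CKO. None of the 605 and 954 UMIs were left in mesenchymal-like cells. Among the endothelial-like sub-clusters with at least 30 cells per library, Nppa was past 2-fold higher in sub-cluster 0 (25.7 against 87.0 CPM, where 1.97% of genes were), sub-cluster 2 (24.0 against 122 CPM, where 0.758% were) and sub-cluster 3 (21.4 against 63.4 CPM, where 2.01% were). Per cell these H2CKO levels were 0.835, 1.08 and 1.03 UMIs, near the 0.936 of erythroid-like cells.

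The epicardial-like cells of Control were the exception, with 0.598 Nppa UMIs per cell (0.546 to 0.653), above the erythroid-like level. They also had 65.9 UMIs of the cardiomyocyte markers per cell, against 22.8 in erythroid-like cells of Control. Relative to those markers their Nppa was low, at 9.07 per 1000 marker UMIs against 14.3 in cardiomyocyte-like and 17.3 in erythroid-like cells. White blood cell-like cells of Control were lower still, at 3.47 (2.17 to 5.26). Over the 5 classes this ratio ran from 3.47 to 17.3 in Control and from 20.5 to 56.1 in H2CKO. It was thus less even than the number per cell, and the reason was not tested. For Nppb the 5 classes had between 0.159 and 0.264 UMIs per cell in Control and between 0.141 and 0.166 in H2CKO. Endothelial-like cells of Control, at 0.264 (0.215 to 0.321), lay above erythroid-like cells, at 0.159 (0.144 to 0.174). Taking the erythroid-like number per cell off left 40.4 of their 101 Nppb UMIs, and 16.4 of 125 in H2CKO.

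**Figure D3:**
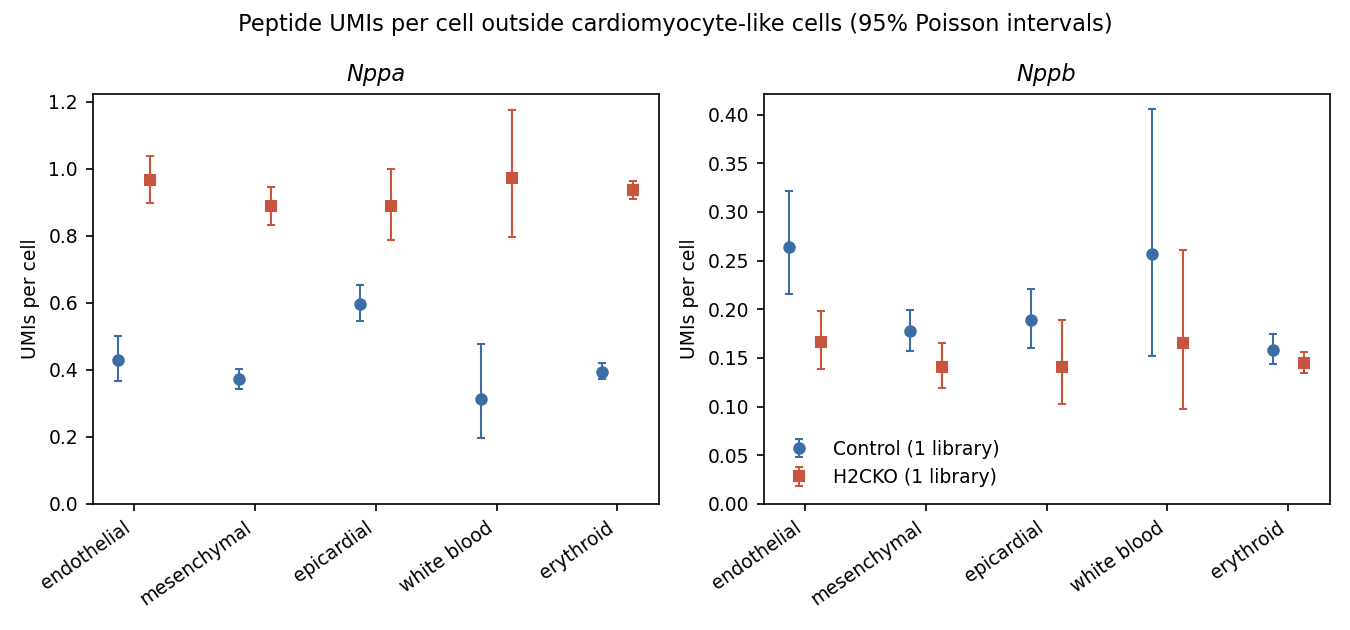
Nppa (left) and Nppb (right) UMIs per cell (y axis) in the 5 classes other than cardiomyocyte-like cells (x axis). Circles are the Control library, squares the H2CKO library, and bars 95% Poisson intervals. The H2CKO classes lie between 0.888 and 0.973 Nppa UMIs per cell, and erythroid-like cells are at the level of the others.

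Nppc, the C-type peptide gene, was an endothelial transcript in these hearts and a rare one. It lies on chromosome 1, from 86666291 to 86670571 on the minus strand. Endothelial-like cells held 93 of its 105 UMIs in kept Control cells and 55 of 72 in H2CKO. Its level there was 14.6 CPM in Control (11.8 to 17.9) and 5.80 CPM in H2CKO (4.37 to 7.55), below the 20 CPM needed for a call. It had a UMI in 30 of 382 Control cells (7.85%, 5.36 to 11.02) and in 26 of 751 H2CKO cells (3.46%, 2.27 to 5.03), against 1 of 2736 and 1 of 4985 erythroid-like cells. Thinned to 5000 UMIs per cell, these shares were 1.94% (0.785 to 3.97) of 360 Control cells and 1.74% (0.901 to 3.01) of 691 H2CKO cells, which leave out 22 and 60 shallower cells. In white blood cell-like cells 7 UMIs in H2CKO came from 1 cell.

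None of the 6 endothelial-like sub-clusters had 3 markers of 1 list among its 10 leading genes, so none is named. Nppc was found mainly in sub-clusters 1 and 2 of them. These are the sub-clusters with the most Klf2, a gene switched on by blood flow, at 2168 and 2237 CPM in Control against 635 and 577 CPM in sub-clusters 0 and 3. Sub-cluster 1, led by Adamts8, Wnt9b and Nrg1 among others, held 32.0 CPM of Nppc in 126 Control cells (25.3 to 39.97) and 16.5 CPM in 149 H2CKO cells (11.4 to 23.0), a difference under 2-fold (log2 −0.79). Sub-cluster 2, led by Krt79, Rbp7 and Car4, held 8.22 CPM (4.38 to 14.1) and 18.0 CPM (10.7 to 28.4), on 13 and 18 UMIs. Sub-clusters 0 and 3 together held 1 Nppc UMI over both libraries.

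Npr1, the cyclase receptor of the peptides made by heart muscle, was also highest in endothelial-like cells, and its level there was alike in both libraries. It lies on chromosome 3, from 90450591 to 90465866 on the minus strand. Endothelial-like cells held 23.7 CPM in Control (20.1 to 27.8) and 23.7 CPM in H2CKO (20.7 to 27.1), and the interval of the ratio ran from 0.81 to 1.24. White blood cell-like cells followed with 11.8 CPM in Control and 6.19 CPM in H2CKO, on 16 and 11 UMIs. Cardiomyocyte-like, mesenchymal-like and epicardial-like cells lay between 2.10 and 2.89 CPM in both libraries and did not differ beyond their intervals, and erythroid-like cells had 0.21 and 0.13 CPM. Cardiomyocyte-like cells, more numerous than endothelial-like cells, held 38.7% of Npr1 UMIs in Control and 46.0% in H2CKO, next to 35.2% and 43.1% in endothelial-like cells.

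In endothelial-like sub-clusters 0, 1 and 2, Npr1 lay between 20.8 and 30.8 CPM in Control and between 21.0 and 29.1 CPM in H2CKO. In sub-cluster 3 it was 10.7 CPM in Control (5.54 to 18.7, on 12 UMIs), below sub-clusters 1 (24.2 to 38.6) and 2 (19.7 to 36.6) beyond counting error. In H2CKO it was 24.8 CPM there (54 UMIs), a ratio of 2.32 (1.22 to 4.76) that stayed under 2-fold on the scale with 5 CPM added (log2 0.92).

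Npr2, the receptor for the C-type peptide, was below 20 CPM in every class. It lies on chromosome 4, from 43631935 to 43651244 on the plus strand. Mesenchymal-like cells, which include the cushion cells that form the valves, had the most in Control with 6.73 CPM (5.71 to 7.87), and 4.32 CPM (3.20 to 5.71) in H2CKO. Cardiomyocyte-like cells had 2.21 and 1.91 CPM, epicardial-like cells 1.88 and 3.15 CPM, and endothelial-like cells 1.26 and 1.69 CPM. In H2CKO the interval of mesenchymal-like cells overlapped that of epicardial-like cells (1.57 to 5.64) and lay above those of cardiomyocyte-like (1.63 to 2.24) and endothelial-like cells (0.965 to 2.74). Within the cardiomyocyte-like class the canal-like sub-cluster had 8.75 CPM in Control (5.00 to 14.2) and 9.87 CPM in H2CKO (6.44 to 14.5). Sub-cluster 11, low in cardiomyocyte markers, had 23.5 CPM in Control (10.7 to 44.6, on 9 UMIs) and 2.11 CPM in H2CKO (1 UMI), too few UMIs for a call.

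Npr3, the clearance receptor, gave the clearest difference among the receptors. It lies on chromosome 15, from 11839896 to 11907287 on the minus strand. In endothelial-like cells it fell from 190 CPM (179 to 201) to 59.9 CPM (55.1 to 65.1), 3.17-fold lower in H2CKO (2.86 to 3.51) and −1.59 on the log2 scale. In that class 7.38% of 6531 genes were past 2-fold lower, so a call of this kind was not rare there. Its summed endothelial markers stood at 4127 and 4174 CPM, while mesenchymal markers went from 2083 to 465 CPM and erythroid markers from 18132 to 44066 CPM, and their part was not tested. A UMI was found in 55.2% of Control and 37.9% of H2CKO cells, and in 41.4% (36.2 to 46.7) and 23.4% (20.3 to 26.8) after thinning to 5000 UMIs. Erythroid-like cells had a UMI in 0.33% and 0.14% of cells. The fall was present at both mitochondrial shares, with 194 against 52.8 CPM up to 5% and 154 against 69.8 CPM above it. Npr3 spans 67392 bases, and in endothelial-like cells the log2 differences of 6527 genes fell with gene span (Spearman rho −0.49 across genes, which are not independent replicates). With that trend taken out, Npr3 stood at −1.04.

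The fall of Npr3 was steepest where its Control level was highest. Sub-cluster 3, led by Irx5 and Dlk1 with cell division genes, went from 541 CPM (499 to 586) in 61 cells to 92.9 CPM (80.5 to 107) in 134 cells, 5.83-fold lower (4.96 to 6.87), where 9.66% of 6477 genes were past 2-fold lower. Sub-cluster 0, led by Lbp, Nr2f2 and Emcn, went from 423 CPM (379 to 470) in 70 cells to 90.3 CPM (79.3 to 103) in 278 cells, 4.68-fold lower (3.96 to 5.54), where 10.7% of 5987 genes were. Sub-clusters 1 and 2 started from 48.0 and 67.1 CPM and fell to 18.9 and 30.0 CPM, log2 −1.15 and −1.04, where 4.4% and 5.84% of genes were past 2-fold lower. Sub-cluster 5, led by Kcne3, Fabp4 and Esm1, had 16.2 CPM in 10 cells and 22.9 CPM in 31 cells. Sub-cluster 4, led by haemoglobin genes, had 132 CPM in 8 cells and 42.1 CPM in 46 cells. Both have too few Control cells for a call here. The 2 sub-clusters with the most Npr3 made up 131 of 382 endothelial-like cells in Control and 412 of 751 in H2CKO. Markers moved with Npr3 in both: 6 endocardial markers summed to 966 against 297 CPM in sub-cluster 0 and 966 against 312 CPM in sub-cluster 3, and 7 vascular markers to 110 against 369 CPM and 152 against 302 CPM. In sub-clusters 1 and 2 the endocardial markers went from 1181 to 577 CPM and from 1216 to 796 CPM, and the vascular ones stood at 123 and 167 CPM and at 109 and 115 CPM. Their part in the result was not tested. With the erythroid-like background taken off every gene, sub-cluster 2 stood just under 2-fold (log2 −0.99) and the other 3 kept their calls.

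**Figure D4:**
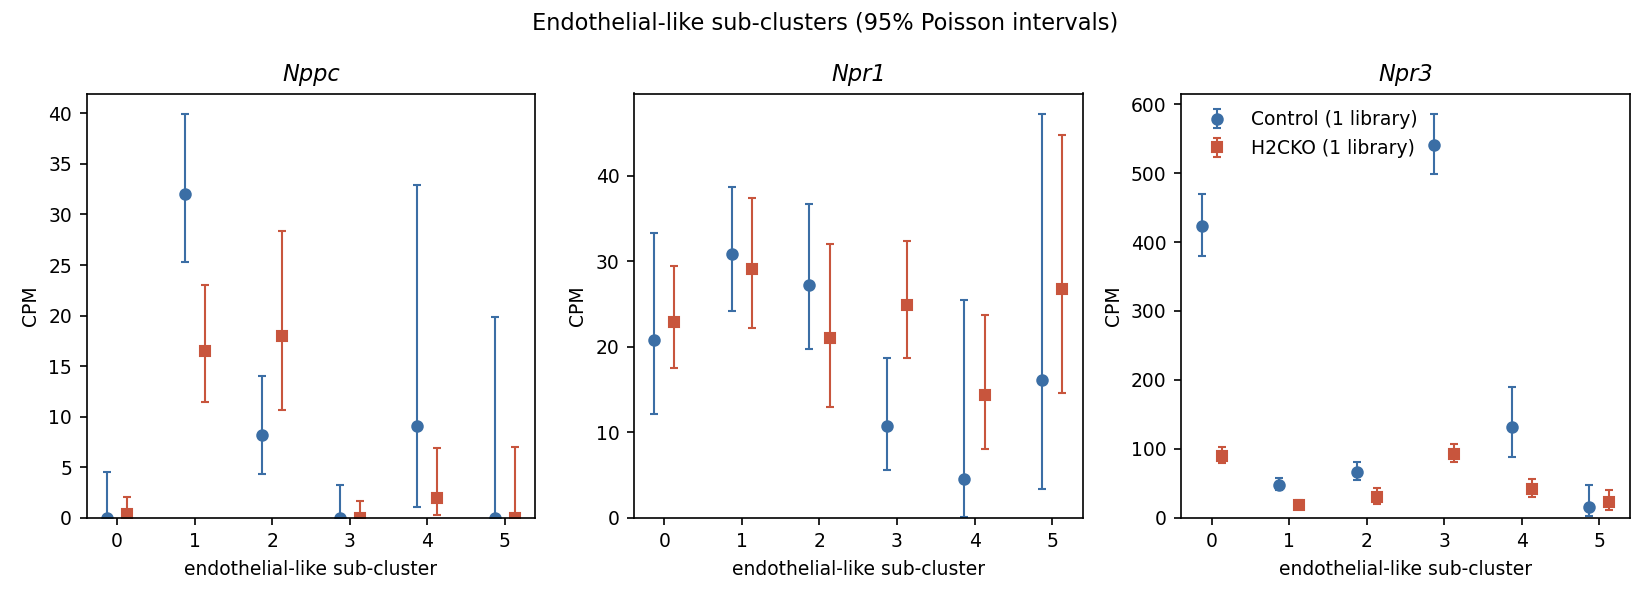
Nppc (left), Npr1 (middle) and Npr3 (right) in the 6 endothelial-like sub-clusters (x axis), in CPM (y axis). Circles are the Control library, squares the H2CKO library, and bars 95% Poisson intervals. Nppc is found mainly in sub-clusters 1 and 2, and Npr3 is highest in Control in sub-clusters 0 and 3, at 423 and 541 CPM.

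GFP allowed a split within the H2CKO library. Of its endothelial-like cells 527 had a GFP UMI and 224 had none, a group that can also hold cells whose GFP transcript was missed. Hand2 stood at 8.04 CPM with GFP and 20.5 CPM without. Npr3 was 56.3 CPM with GFP (50.9 to 62.1) and 70.7 CPM without (60.4 to 82.2), a ratio of 0.80 (0.66 to 0.96). Both values are far below the 190 CPM of Control. Within sub-cluster 0 the values were 91.8 and 87.9 CPM, and within sub-cluster 3 they were 93.5 and 91.6 CPM, with intervals that overlapped. Nppc differed more between the groups, with 53 UMIs (7.48 CPM) with GFP and 2 UMIs (0.84 CPM) without, and Npr1 was 25.3 and 19.2 CPM. GFP was found in 89.3% and 85.0% of the cells of sub-clusters 1 and 2, where Nppc lies, and in 56.8% and 63.4% of sub-clusters 0 and 3.

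Epicardial-like cells were the second site of Npr3. They held 43.0 CPM in Control (39.5 to 46.6) and 10.9 CPM in H2CKO (7.70 to 14.9), 3.95-fold lower (2.84 to 5.64) and −1.60 on the log2 scale, where 5.55% of 6325 genes were past 2-fold lower. The H2CKO value rests on 38 UMIs in 312 cells. Hand2 stood at 125 and 113 CPM in the same cells. Mesenchymal-like cells had 7.42 CPM in Control and 1.41 CPM in H2CKO, on 171 and 16 UMIs, a ratio of 0.19 (0.11 to 0.32) at levels below the 20 CPM needed for a call. Other markers moved with these values: the summed markers of their own class went from 2837 to 2046 CPM in epicardial-like and from 7725 to 3676 CPM in mesenchymal-like cells, while erythroid markers rose from 11594 to 45624 CPM and from 11934 to 53728 CPM. Their part was not tested. Cardiomyocyte-like cells had 1.76 and 0.95 CPM of Npr3. In order, endothelial-like, epicardial-like and mesenchymal-like cells differed beyond their intervals in both libraries.

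**Figure D5:**
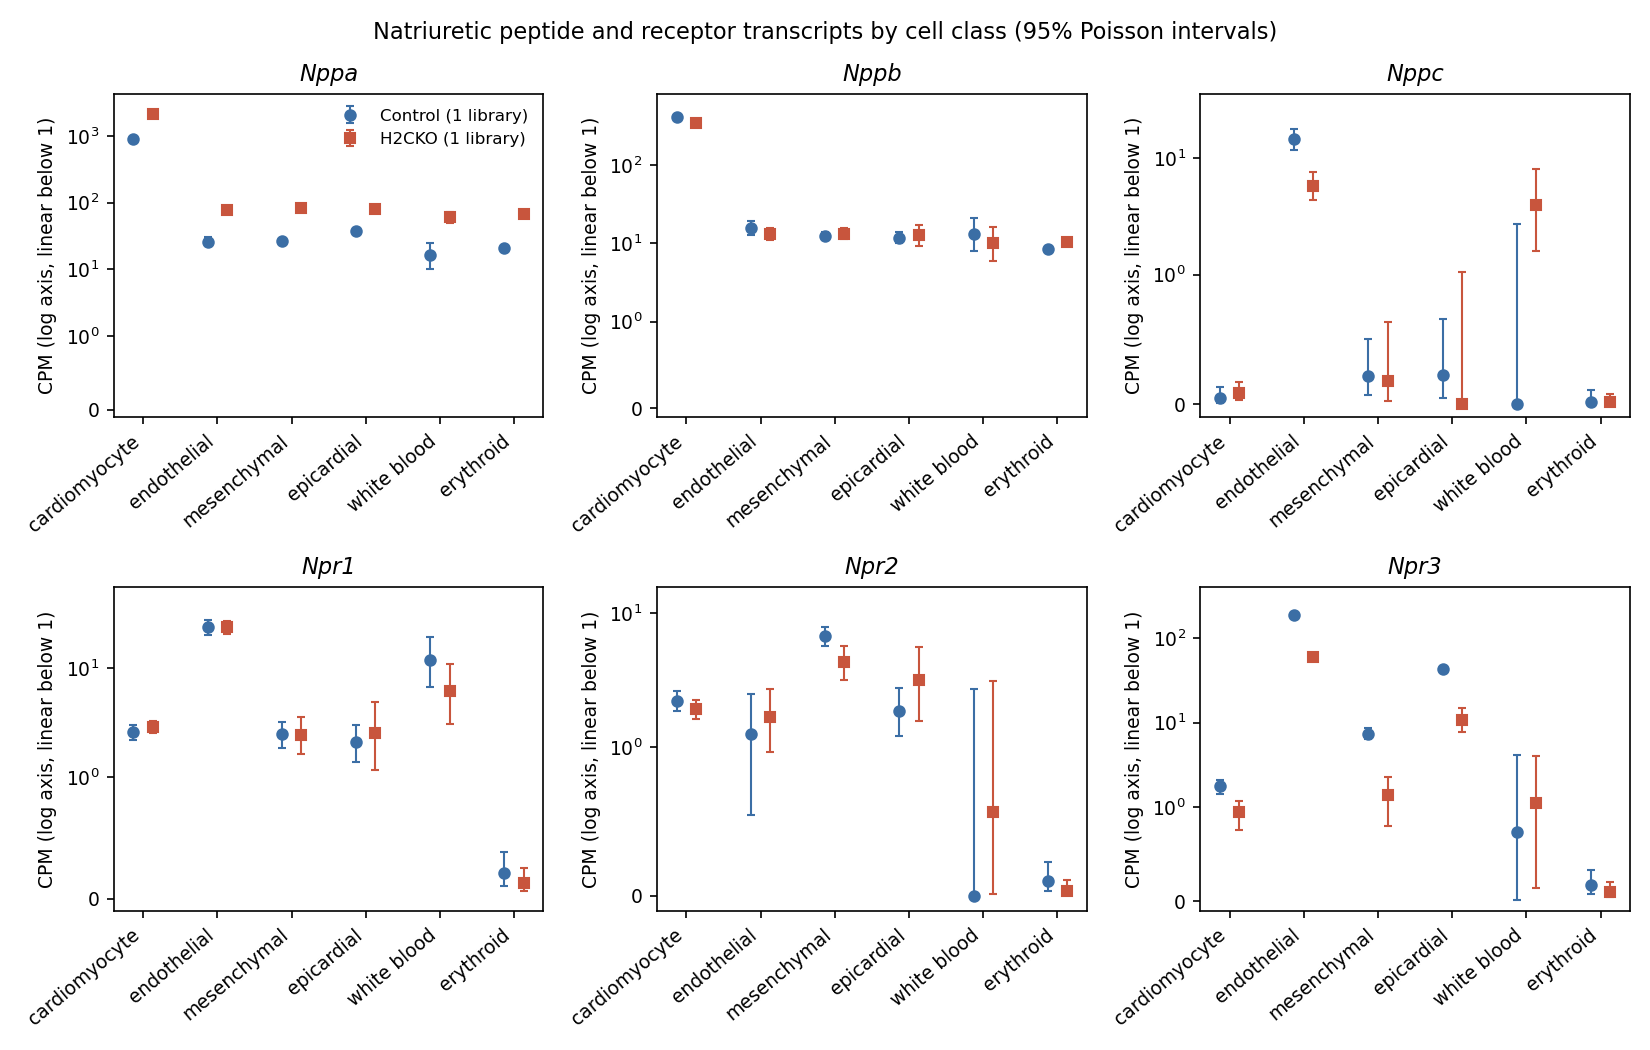
The 6 natriuretic genes by cell class (x axis), in CPM on an axis that is logarithmic above 1 and linear below. Circles are the Control library, squares the H2CKO library, and bars 95% Poisson intervals. Nppa and Nppb are highest in cardiomyocyte-like cells, Nppc, Npr1 and Npr3 in endothelial-like cells, and Npr3 is lower in H2CKO in the endothelial-like, mesenchymal-like and epicardial-like classes.

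Other genes of the pathway were taken from a list of 22 that make, degrade or act below the peptides. In cardiomyocyte-like cells 8 of the 22 reached 20 CPM and 20 UMIs, and 0 were past 2-fold in either direction. Of all 5567 genes tested there, 0.198% were past 2-fold higher and 0.736% lower, so 0 of 8 is unremarkable. The median log2 difference of the 8 was −0.30, against −0.17 over all genes. Furin, a protease that cuts the B-type and C-type precursors, stood at 25.9 and 14.4 CPM there, and the soluble guanylyl cyclase genes Gucy1a1 and Gucy1b1 at 41.0 and 36.9 CPM and at 33.8 and 35.2 CPM. In endothelial-like cells 7 of the 22 reached that level, of which 0 were past 2-fold higher and 3 past 2-fold lower, where 0.827% and 7.38% of all genes tested were. Corin, the protease that cuts the atrial precursor, went from 29.3 to 5.91 CPM, Furin from 57.6 to 19.6 CPM, and Prkg1, a kinase activated by cGMP, from 21.1 to 4.85 CPM. The median of the 7 was −0.85, against −0.28 over all genes tested in that class. Corin, Furin and Prkg1 reached 20 CPM in Control only, so the low median rests in part on genes that passed through their Control level. Vasp, a substrate of that kinase, stood at 108 and 144 CPM.

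In mesenchymal-like cells 8 of the 22 were measured and 1 was past 2-fold lower, Furin at 84.6 against 35.3 CPM, where 3.49% of 6532 genes were. In epicardial-like cells 9 were measured. Mme, the peptide-degrading enzyme neprilysin, was past 2-fold lower at 39.0 against 16.0 CPM, where 5.55% of 6325 genes were, and the phosphodiesterase Pde1a past 2-fold higher at 18.7 against 43.0 CPM, where 0.553% were past 2-fold higher. In white blood cell-like cells 6 were measured and 3 were past 2-fold lower, where 8.53% of 5912 genes were: Gucy1a1 (51.1 against 14.1 CPM), Gucy1b1 (24.4 against 6.75 CPM) and Mrvi1 (54.8 against 5.06 CPM). Markers of other cells were also lower in that class in H2CKO, with cardiomyocyte markers at 4696 against 1752 CPM and mesenchymal markers at 222 against 54.0 CPM, and their part was not tested. Ostn, another ligand of Npr3, had 0 UMIs in endothelial-like and cardiomyocyte-like cells.

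Of 15 transcription factors known to act on Nppa or Nppb, 12 were measured in cardiomyocyte-like cells and 0 were past 2-fold, where 0.198% of all genes were higher and 0.736% lower. Gata4 stood at 77.1 and 61.2 CPM, Nkx2-5 at 166 and 199 CPM, Tbx5 at 37.0 and 29.0 CPM, and Tbx20 at 192 and 105 CPM (log2 −0.84). In endothelial-like cells 8 were measured and 4 were past 2-fold lower: Hand2 itself, Tbx20 (271 against 64.1 CPM), Hey2 (99.2 against 30.8 CPM) and Gata4 (181 against 80.5 CPM). The share over all genes there was 7.38%, and Gata4 and Tbx20 also belong to the endocardial markers. Mesenchymal-like cells had 9 measured and 3 past 2-fold lower, Hand2 (180 against 47.1 CPM), Tbx20 (526 against 248 CPM) and Tbx2 (25.9 against 10.1 CPM), where 3.49% of all genes were. White blood cell-like cells had 4 measured and 2 past 2-fold lower, Gata6 (24.4 against 3.38 CPM) and Tbx20 (33.3 against 6.75 CPM), where 8.53% were, in the class whose cardiomyocyte and mesenchymal markers were also lower.

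The genes with the most similar pattern were found by the Pearson correlation of log2(CPM + 5) over 24 sums of 1 cluster and 1 library, among 8647 genes. The sums share libraries, depth and class, so the values describe a pattern over cell types. Nppa was closest to Igfbpl1 (0.95), Nppb (0.94) and Cited1 (0.93), and Nppb to Igfbpl1 (0.99), Smpx (0.98) and Cited1 (0.97). Npr1 was closest to Tec (0.96), Ednrb (0.95) and Gimap6 (0.95), and Npr3 to Adamts5 (0.97), Samd5 (0.95) and Ehd2 (0.95).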

How the data were processed

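Per the labels' protocols, whole E11.5 hearts were dissociated after about 3 hours on ice and sequenced with a 10x Genomics 3′ kit. The deposited matrices hold raw UMI counts per gene and barcode, and the submitters' processing notes list Cell Ranger 5.0.1, Seurat 4 and GRCm38.p6, with no roles given. The deposited embedding coordinates, read as a score without a unit, served only to mark the cells they cover. The genes and lists were chosen with earlier results of these data known.

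Barcodes under 500 genes, or over 10% mitochondrial UMIs, were dropped. Predicted doublets were removed, 9.36% in Control and 5.00% in H2CKO, where the automatic threshold found 0 and the top 5% of scores were taken. Clustering used scanpy 1.11.5 with 2000 variable genes, 30 components, 15 neighbours per library and Leiden resolution 1, giving 14 clusters. The 6 genes, Hand2, the reporters, haemoglobin, mitochondrial and sex-linked genes were left out. UMIs were summed per class and library. Intervals are exact Poisson, exact binomial (Clopper-Pearson) or exact conditional for ratios, at 95%, and the median kept cell had 16252 and 13432 UMIs. The genes named were the 6, every listed gene past 2-fold, up to 4 genes per role by level, Hand2 and the reporters, and the 3 most similar genes. Calls were tested on simulated data. Other filters, doublet treatment, resolution, naming, thinning, scaling, pseudocounts and background removal were tried. Coordinates are those of GENCODE and RefSeq on GRCm38.p6.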

Additional observations from a re-analysis of the deposited data

Results flagged for a closer look

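The difference in Nppa between the libraries ran in opposite directions in different sub-clusters of cardiomyocyte-like cells. In sub-cluster 1, whose leading gene was Gm8797, it was −1.38 on the log2 scale (1977 CPM in Control, 755 CPM in H2CKO). In the atrioventricular canal-like sub-cluster 10, led by Bmp2, it was 2.56 (56.3 and 356 CPM). With 1 library per genotype the difference between sub-clusters was not tested. Sub-cluster 1 had a median of 1505 UMIs per cell and sub-cluster 10 a median of 16855 UMIs in Control and 12618 in H2CKO.

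Barcodes left out by the filter also held Nppa, at 754 CPM in 4273 Control barcodes and 4103 CPM in 1744 H2CKO barcodes. The summed cardiomyocyte markers were similar over both whole sets, at 44132 and 46910 CPM. Most of the H2CKO signal lay in 1029 barcodes with at least 500 genes and over 10% mitochondrial UMIs, with 4442 CPM of Nppa and 440 CPM of Nppb. The 1202 such Control barcodes had 795 and 240 CPM. In the barcodes with under 500 genes Nppa was 648 CPM in Control and 935 CPM in H2CKO, and the summed cardiomyocyte markers there were not alike, at 32014 and 14643 CPM.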

How the results depend on the processing

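Nppa in cardiomyocyte-like cells (log2 1.27) stayed past 2-fold higher under 15 of 18 alternatives, up to 1.45. It reversed to −1.02 under a stricter filter of 1500 genes and 5% mitochondrial UMIs (771 and 378 CPM) and to −0.92 in the cells with at most 5% in the clusters as before, and it fell to 0.81 with each cell thinned to 5000 UMIs. Under the first 2 of these settings Nppb moved past 2-fold lower, to −1.46 and −1.43. The cause was not tested. Npr3 kept its call in endothelial-like cells (−1.78 to −1.04 over 15 alternatives) and in epicardial-like cells (−1.89 to −1.07 over 13). Npr1 in endothelial-like cells stayed under 2-fold, with a sign that turned from 0.00 to 0.028 with doublets kept, 0.047 without haemoglobin and mitochondrial genes in the totals, 0.28 after centring on the median gene and 0.15 with the gene span trend out. Nppa in epicardial-like cells (0.99) passed 2-fold higher under 9 alternatives and turned to −1.74 in the 18 Control and 16 H2CKO cells with over 5% mitochondrial UMIs, and in sub-cluster 2 it turned to −0.023 after thinning. Among the sub-clusters, thinning ended the call of sub-cluster 8 (0.99), removing the erythroid-like background ended that of the outflow-tract-like cells (0.92) and left sub-clusters 9 and 11 below the filter, and both made sub-cluster 6 past 2-fold lower. The number of genes past 2-fold ranged from 8 to 96 higher and 14 to 140 lower in cardiomyocyte-like cells (11 and 41 as reported), and from 22 to 203 higher and 129 to 744 lower in endothelial-like cells (54 and 482). The alternatives by mitochondrial share, by sub-cluster (background removal included) and without the atrial-like or the shallow cluster were chosen after seeing the data. No paired analysis was possible because each genotype has 1 library. Low counts limit Nppc and Npr2, which as counted stayed below 20 CPM in every class. With the erythroid-like background taken off every gene, Nppc in endothelial-like cells stood at 22.5 CPM in Control and 8.80 CPM in H2CKO. That difference is still under 2-fold on the scale with 5 CPM added.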
